A study of Rattus norvegicus with 11 samples.

Results

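The genes described here encode the acid-activated proteases of the lysosome (cathepsins), the subunits of the proton pump that acidifies it (V-ATPase), and its 2 Lamp membrane proteins measured here. They were found by symbol: a probe set counted if its single platform symbol began with Atp6v, was Cts followed by 1 letter, or was Lamp followed by a digit. Of 40 such probe sets, the one with the highest mean log2(signal + 16) over the 11 arrays was kept for each gene, which left 32 of the 10411 genes measured. They are 9 subunits of the V1 domain, 7 subunits of the V0 domain, 14 cathepsins, and Lamp1 and Lamp2.

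REF52, the source of the RNA, is an established line of rat embryo fibroblasts. Every culture was grown in medium with 10% foetal bovine serum and held at 0.25% serum for 48 h. It then received adenovirus, either a control virus (labelled CMV) or one expressing E2F1, a transcription factor that drives entry into DNA synthesis. Afterwards cells were kept deprived, given serum, or given serum with LY294002, an inhibitor of phosphoinositide 3-kinase, whose dose is not given in the sources used here. Each of the 6 combinations of virus and medium has 2 arrays, apart from deprived control virus cells, which have 1. All 11 arrays therefore carry RNA of infected cells with an earlier deprivation, and no uninfected culture was analysed here. The labels do not say whether the arrays of a pair came from separate cultures, so a p-value reflects no more than the spread among these 11 arrays.

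Lysosomes digest material brought in by endocytosis, phagocytosis and autophagy. The V-ATPase has a cytosolic V1 domain that splits ATP and a membrane V0 domain that carries protons, and the acid it makes lets most cathepsins mature and work. Lamp proteins cover the inner face of the lysosomal membrane with sugar chains. Transcription factors of the TFEB family bind CACGTG-containing letters near the start of many of these genes, and they are held in the cytosol when mTORC1, which acts downstream of phosphoinositide 3-kinase, is active at the lysosome.

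Promoters in RefSeq (assembly GRCr8, 250 bases before to 50 after each gene's start) were held for 27 of the 32 genes, all but Atp6v0e2, Atp6v1b2, Atp6v1c1, Ctsb and Ctsq. The following 5 are shown because 4 of them belong to genes called for E2F1 below and the other, Lamp1, has the most matches. The promoter of Ctsa, which was also called, holds no CACGTG and is not shown. Capitals mark CACGTG, which reads the same on both strands, and every sequence runs 5′ to 3′ on the strand of the gene.
Ctsd, chr1:206968772-206969071, minus strand: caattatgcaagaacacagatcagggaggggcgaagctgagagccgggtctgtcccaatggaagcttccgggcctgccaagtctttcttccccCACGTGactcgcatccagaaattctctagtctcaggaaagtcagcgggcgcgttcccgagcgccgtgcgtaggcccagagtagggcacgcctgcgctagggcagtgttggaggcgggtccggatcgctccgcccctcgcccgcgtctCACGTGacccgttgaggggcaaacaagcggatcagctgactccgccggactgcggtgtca
Atp6v0d1, chr19:50357199-50357498, minus strand: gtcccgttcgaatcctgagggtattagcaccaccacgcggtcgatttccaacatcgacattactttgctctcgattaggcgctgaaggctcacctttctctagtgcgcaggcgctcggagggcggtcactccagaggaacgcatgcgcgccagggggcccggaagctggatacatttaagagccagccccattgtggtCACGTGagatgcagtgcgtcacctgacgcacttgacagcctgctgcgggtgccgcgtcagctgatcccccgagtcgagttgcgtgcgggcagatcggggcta
Lamp1, chr16:83075014-83075313, minus strand: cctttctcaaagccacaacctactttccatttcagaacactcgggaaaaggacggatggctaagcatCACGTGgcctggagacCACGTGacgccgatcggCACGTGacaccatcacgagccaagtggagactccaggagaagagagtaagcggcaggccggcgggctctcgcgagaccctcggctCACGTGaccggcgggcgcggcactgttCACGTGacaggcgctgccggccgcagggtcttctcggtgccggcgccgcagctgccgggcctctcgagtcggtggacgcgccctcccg
Ctsh, chr8:99488506-99488805, plus strand: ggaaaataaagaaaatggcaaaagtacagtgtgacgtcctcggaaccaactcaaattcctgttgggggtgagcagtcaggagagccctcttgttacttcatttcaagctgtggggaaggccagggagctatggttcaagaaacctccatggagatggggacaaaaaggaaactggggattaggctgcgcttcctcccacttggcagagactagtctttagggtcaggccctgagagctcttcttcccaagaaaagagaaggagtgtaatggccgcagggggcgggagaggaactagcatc
Atp6v1a, chr11:70067252-70067551, plus strand: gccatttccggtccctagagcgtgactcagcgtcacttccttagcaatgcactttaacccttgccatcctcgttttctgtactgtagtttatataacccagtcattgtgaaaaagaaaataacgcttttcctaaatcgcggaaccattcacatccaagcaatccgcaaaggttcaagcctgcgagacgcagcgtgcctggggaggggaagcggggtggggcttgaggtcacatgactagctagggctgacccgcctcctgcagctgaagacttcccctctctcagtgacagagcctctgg

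CACGTG lay in 5 of the 27 promoters (18.5%), those of Atp6v0d1, Atp6v0e1, Ctsd, Ctsf and Lamp1, against 6.42% of all 33469 RefSeq promoters of this length. Lamp1 held it at 5 places. The longer form TCACGTGA, which contains CACGTG, lay in 4 of the 27 (14.8%) against 0.777% of all promoters. Its first base was 11 bases before the start in Ctsd, 53 in Atp6v0d1, and 66 and 39 in Lamp1, while in Atp6v0e1 it lay 24 bases from the start on the gene side. Of the E2F letters searched on both strands, TTTCGCGC lay in Atp6v0e1 alone (3.7% of the 27 against 0.326% of all), and TTTCCCGC, TTTGGCGC and TTTGCCGC lay in none of the 27. Ctsh and Atp6v1a, the genes with the largest called change in each direction below, hold neither CACGTG nor any of these E2F letters in this window.

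Of the 32 genes, 25 had a signal of at least 64 on every array. Signals are compared between arrays, never between genes. Ctsc, Ctsj, Ctsk, Ctsq, Ctsr and Atp6v1g3 stayed under 64 on all 11 arrays, and Atp6v1c2 ran from 8.28 to 142. Cathepsin K is known from osteoclasts, Ctsj, Ctsq and Ctsr belong to a rodent family known from placenta, and Atp6v1g3 from kidney. No fold is given for these 7.

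Cells with E2F1 had less RNA of 4 cathepsins and of 1 V0 subunit, and more RNA of 1 V1 subunit, than cells with the control virus. In the average of the 3 media Ctsh fell by 1.02 ± 0.17 (standard error, 11 arrays, log2 scale), Ctsa fell by 0.72 ± 0.16, Ctsd fell by 0.69 ± 0.15 and Ctsb fell by 0.45 ± 0.11. Atp6v0d1 fell by 0.52 ± 0.13, and Atp6v1a rose by 0.55 ± 0.10. These 6 passed the test (limma's moderated test, adjusted by Benjamini-Hochberg over 15866 probe sets, threshold 0.05). The 5 lower genes are 15.6% of the 32, where 7.25% of all probe sets were called lower, and the 1 higher gene is 3.12%, where 9.23% were called higher (16.5% were called in all). The median change of the 32 was -0.14, with 20 genes below 0 and 12 above, and that of all probe sets was -0.04. Among the 25 genes at 64 or more on every array the median was -0.28, with 19 below 0 and 6 above, while the -0.04 includes dim probe sets. The number called was 2 without the first deprived E2F1 array and 3 when the first E2F1 serum array was left out. Deprivation enters this average with a single control virus array, and the average over the 2 media with serum, which leaves deprivation out, called only Ctsh (1 of 32, where 10.2% of all probe sets were called). These are bulk samples, so fewer cells with a transcript and less of it per cell cannot be told apart.

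**Figure D1:**
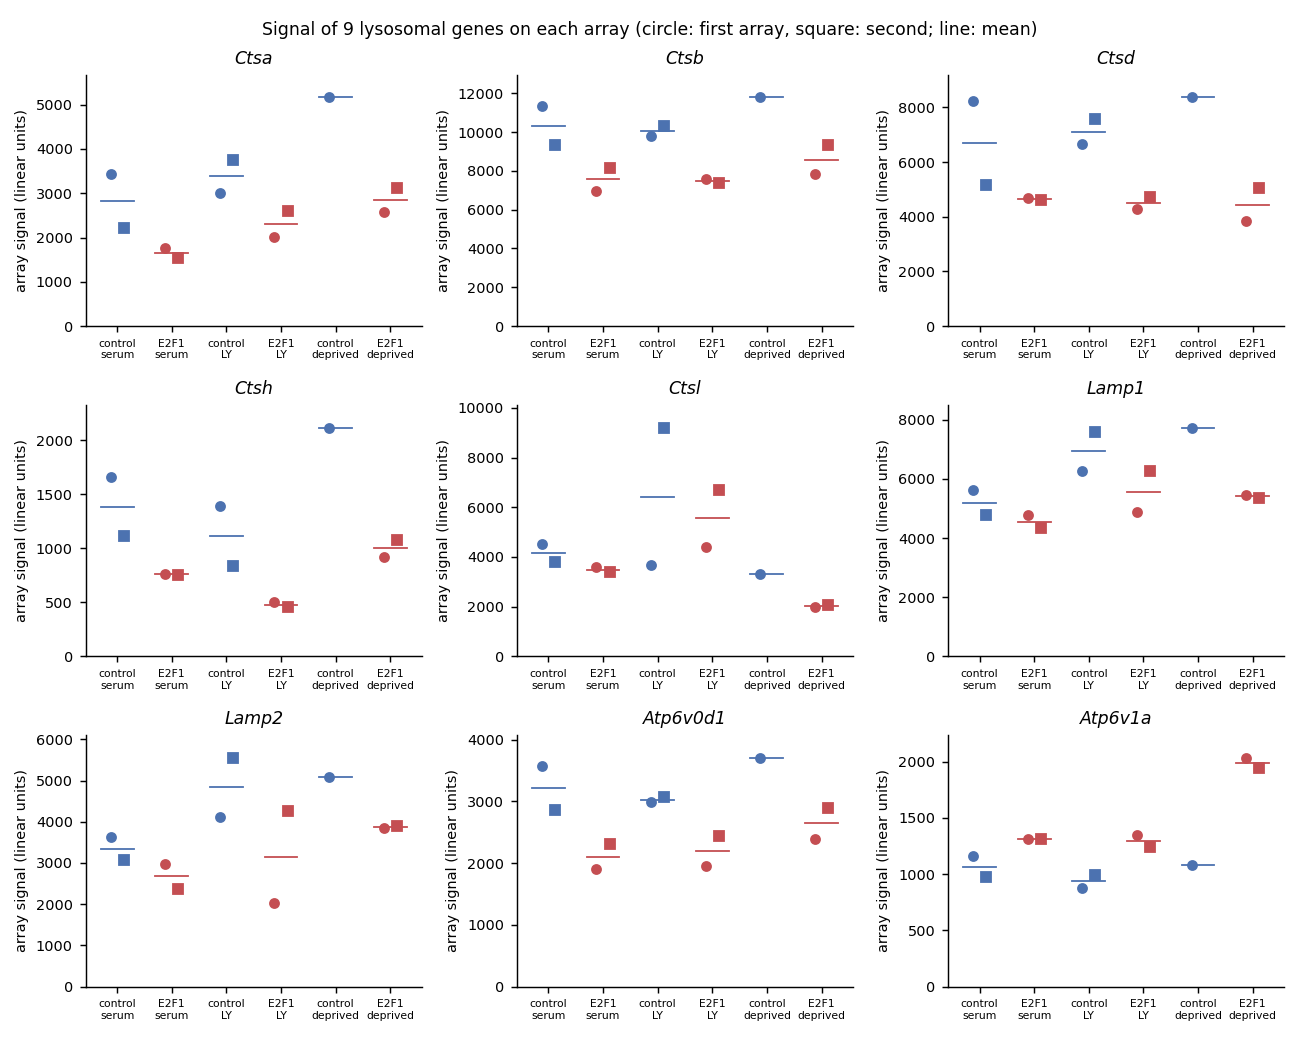
Signal (linear axis from 0) of 9 genes on each of the 11 arrays by virus and medium, with circles for first arrays, squares for second arrays and a line at each group's mean. Ctsh, Ctsa, Ctsd and Ctsb lie lower on E2F1 arrays within each medium, Atp6v1a lies higher, and Ctsl is highest on the second LY294002 array of each virus.

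Cathepsin H, an aminopeptidase, had control virus signals of 1658 and 1113 in serum, 1389 and 839 with LY294002, and 2119 in deprivation. Its E2F1 signals were 761 and 757 in serum, 506 and 452 with LY294002, and 922 and 1078 in deprivation. Both E2F1 arrays were below every control virus array within each medium, although the ranges over all media overlapped. The averaged change was 2.02-fold lower with adjusted p = 0.00743 (limma), and it kept its call under all 22 alternatives run, with adjusted p from 0.00311 to 0.0295. The estimate was -0.83 in serum, -1.15 with LY294002 and -1.08 in deprivation.

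Cathepsin A, a serine carboxypeptidase that also protects beta-galactosidase and neuraminidase in a complex, had control virus signals of 3435 and 2211 in serum, 3012 and 3747 with LY294002, and 5161 in deprivation. With E2F1 they were 1774 and 1535 in serum, 2001 and 2594 with LY294002, and 2580 and 3117 in deprivation. Every E2F1 array was again below the control virus arrays of its medium, and deprived arrays were the highest for control virus. The averaged change was 1.64-fold lower (limma, adjusted p = 0.022). Over the alternatives the adjusted p ran from 0.0111 to 0.068, and the call was lost without the first deprived E2F1 array (0.068) or the second E2F1 serum array (0.0566). Of its partners, Neu1, the neuraminidase, fell by 0.51 ± 0.13 (limma, adjusted p = 0.0358), while Glb1, the beta-galactosidase, had a change of -0.22 ± 0.16 that did not pass (limma, adjusted p = 0.408). These partners were picked after their values were seen.

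Cathepsin D, the main aspartic protease of lysosomes, gave 8229 and 5172 in serum, 6671 and 7558 with LY294002, and 8362 in deprivation with the control virus. With E2F1 it gave 4695 and 4598 in serum, 4281 and 4728 with LY294002, and 3844 and 5039 in deprivation. It is the only one of the 5 lower genes whose 6 E2F1 arrays all lay under all 5 control virus arrays (1 of 32, 3.12%, where 3.59% of all probe sets did). The averaged change was 1.61-fold lower (limma, adjusted p = 0.0211). Over the alternatives the adjusted p ran from 0.0108 to 0.082, and the call was lost without the first deprived E2F1 array (0.0637), the first (0.0559) or the second (0.0516) E2F1 serum array, or both second LY294002 arrays (0.0558).

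Cathepsin B, a cysteine protease, had signals of 11315 and 9310 in serum, 9817 and 10300 with LY294002, and 11782 in deprivation with the control virus. With E2F1 they were 6955 and 8162 in serum, 7568 and 7363 with LY294002, and 7833 and 9317 in deprivation. The groups were apart within each medium and nearly so over all media, since the second deprived E2F1 array lay just above the second control virus array in serum. The averaged change was 1.36-fold lower (limma, adjusted p = 0.0334), and this is the least stable of the 6 calls: 12 of 22 alternatives lost it, with adjusted p over all of them from 0.0145 to 0.114. Among these were quantile normalization (0.114), and leaving out the first deprived E2F1 array (0.0979), the first control virus serum array (0.0911), the first E2F1 serum array (0.0889), the second LY294002 arrays of control virus (0.0561) and E2F1 (0.0552), the second deprived E2F1 array (0.0537) or the first LY294002 array of control virus (0.0526).

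Cathepsin L, another cysteine protease, did not pass for E2F1. Its control virus signals were 4542 and 3799 in serum, 3660 and 9207 with LY294002, and 3298 in deprivation, and its E2F1 signals were 3594 and 3378 in serum, 4391 and 6715 with LY294002, and 1987 and 2064 in deprivation. The pairs with LY294002 were far apart, by 1.33 (control virus) and 0.61 (E2F1) on the log2 scale, and the deprived arrays were the lowest of each virus. The averaged E2F1 change was -0.35 ± 0.25 (limma, adjusted p = 0.403, 95% interval from -0.93 to 0.23). A second Ctsl probe set gave -0.67 ± 0.27 (limma, adjusted p = 0.135). Cathepsin F, of the same protease family, had control virus signals of 610 and 422 in serum, 547 and 1083 with LY294002, and 868 in deprivation, and E2F1 signals of 360 and 330, 381 and 722, and 563 and 597. The arrays overlapped with LY294002, and the averaged change was -0.55 ± 0.24 (limma, adjusted p = 0.168). Ctss, Ctse and Ctsz, all at signals over 64, had changes of -0.17, 0.10 and 0.19, none called, and Ctsc, Ctsj, Ctsk, Ctsq and Ctsr lay too low to compare.

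**Figure D2:**
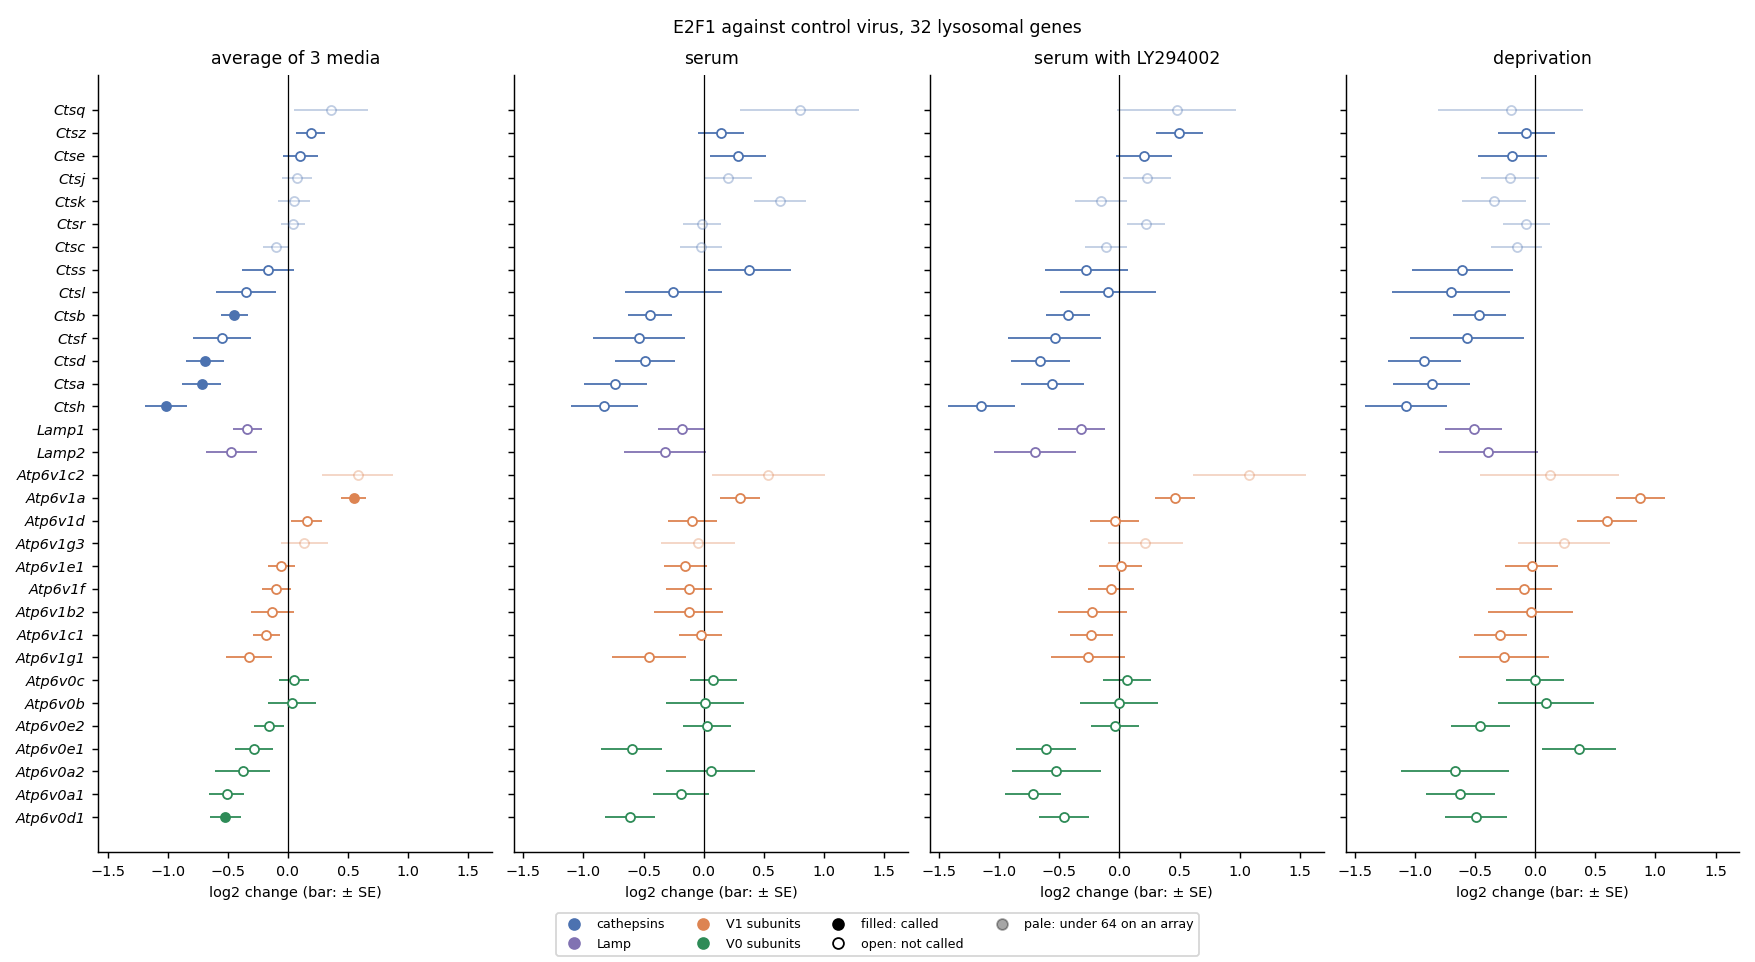
Log2 change of E2F1 against control virus for each of the 32 genes (circle, with a bar of ± 1 standard error), as the average of 3 media and in each medium. Filled circles are called. All 32 genes are drawn in every panel, and the 6 called genes are filled only in the average panel, with Ctsh lowest at -1.02 and Atp6v1a called higher at 0.55.

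Lamp1 and Lamp2, the main glycoproteins of the lysosomal membrane, had lower estimates with E2F1 that did not pass in the fit as described. Lamp1 signals were 5622 and 4773 in serum, 6266 and 7595 with LY294002, and 7739 in deprivation with the control virus, and 4778 and 4345, 4892 and 6259, and 5472 and 5370 with E2F1. The serum arrays overlapped, and those of the other media did not. The averaged change was -0.34 ± 0.12 (limma, adjusted p = 0.1). Lamp2 signals were 3623 and 3060 in serum, 4124 and 5553 with LY294002, and 5079 in deprivation with the control virus, and 2976 and 2380, 2022 and 4251, and 3841 and 3909 with E2F1. The E2F1 pair with LY294002 differed by 1.07 on the log2 scale, and the averaged change was -0.47 ± 0.21 (limma, adjusted p = 0.176). Second probe sets of both were called lower. That of Lamp2 changed by -0.78 ± 0.13 (limma, adjusted p = 0.00743), and that of Lamp1, a dim one at signals from 51.3 to 134, by -0.42 ± 0.11 (limma, adjusted p = 0.0318). The dimmest Lamp1 probe set, at signals from 1.71 to 27.5, changed by -0.58 and did not pass (limma, adjusted p = 0.0977). Alternatives moved both genes across the threshold. Lamp1 passed when its 3 probe sets were averaged, the dim ones included (0.0328), and when the 3' to 5' difference was a covariate (0.0468). Lamp2 passed in the same settings (0.0129 and 0.0166), without both second LY294002 arrays (0.0293) and without the second of these from E2F1 cells (0.0249). Over all alternatives the adjusted p ran from 0.0328 to 0.303 for Lamp1 and from 0.0129 to 0.316 for Lamp2.

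Among the V1 subunits only Atp6v1a, the catalytic A subunit that binds ATP, was called. Its control virus signals were 1162 and 970 in serum, 877 and 996 with LY294002, and 1078 in deprivation, and its E2F1 signals were 1313 and 1312, 1347 and 1241, and 2034 and 1946. All 6 E2F1 arrays were above all 5 control virus arrays (1 of 32, 3.12%, where 6.05% of all probe sets were), and those in deprivation were the highest. The averaged change was 1.46-fold higher (limma, adjusted p = 0.0109). Over the alternatives the adjusted p ran from 0.00393 to 0.083, and the call was lost with the mean of both Atp6v1a probe sets (0.0506), since the dimmer one changed by 0.21 ± 0.14 (limma, adjusted p = 0.359), and in the average over the 2 media with serum (0.083). Estimates for the V1 subunits at signals over 64 were otherwise from -0.33 in Atp6v1g1 to 0.15 in Atp6v1d, with Atp6v1c1 (-0.18), Atp6v1b2 (-0.13), Atp6v1f (-0.10) and Atp6v1e1 (-0.06) between, and none passed. The median of the 9 V1 genes was -0.06.

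In the V0 domain Atp6v0d1, the subunit that joins the membrane ring to the central stalk, was called lower. Its control virus signals were 3573 and 2864 in serum, 2986 and 3065 with LY294002, and 3708 in deprivation, and its E2F1 signals were 1898 and 2304, 1959 and 2447, and 2385 and 2902. Each E2F1 array lay below the control virus arrays of its own medium. The change was 1.44-fold lower (limma, adjusted p = 0.0308). Over the alternatives the adjusted p ran from 0.0161 to 0.0898, and the call was lost on leaving out the first deprived E2F1 array (0.0898), the first serum array of control virus (0.0843) or E2F1 (0.0824), or either LY294002 array of control virus (0.0534 for the first, 0.0526 for the second). Atp6v0a1, one of the large proton-path subunits, had control virus signals of 491 and 415 in serum, 563 and 885 with LY294002, and 470 in deprivation, and E2F1 signals of 376 and 413, 387 and 463, and 305 and 293. The serum arrays were barely apart, and the averaged change of -0.51 ± 0.15 was just short of the threshold (limma, adjusted p = 0.0506). Under 9 of 22 alternatives it passed, with adjusted p over all of them from 0.0168 (without the first LY294002 array of control virus) to 0.131. Atp6v0a2 (-0.38), Atp6v0e1 (-0.28), Atp6v0e2 (-0.16), Atp6v0b (0.03) and Atp6v0c (0.05), which include the ring subunits Atp6v0b and Atp6v0c, did not pass. The median of the 7 V0 genes was -0.28.

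In each medium taken alone, 0 of the 32 genes passed for E2F1. In serum 0.353% of probe sets were called, and 6 of the 32 genes had an unadjusted p under 0.05 (limma). Of all 15866 probe sets, 2465 had such a p in serum, 3413 with LY294002 and 3298 in deprivation. With LY294002 5.41% were called and 7 genes had such a p, with Ctsh nearest (limma, adjusted p = 0.0565). The second Lamp2 probe set, which was not the one kept for the 32 genes, was called lower with E2F1 in this medium (limma, adjusted p = 0.0397). In deprivation 2.87% were called and 5 genes had such a p, with Atp6v1a nearest at 1.83-fold higher (limma, adjusted p = 0.0659). Within each medium the E2F1 arrays lay below the control virus arrays in all 3 media for 6 genes, Ctsh, Ctsa, Ctsd, Ctsb, Atp6v0d1 and Atp6v0a1 (18.8% against 8.97% of all probe sets), and above them in all 3 for Atp6v1a (3.12% against 10%).

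The difference of the E2F1 change between media did not pass for any of the 32 genes. On simulated data these tests recovered 0% of 2-fold differences, for LY294002 and for deprivation alike. Of 4-fold differences they recovered 56% for LY294002 and 0% for deprivation, so a lack of calls says little here. For LY294002 against serum 0 passed (0% of all probe sets), 1 having an unadjusted p under 0.05 (limma), and for deprivation against serum 0 passed (0% of all), 2 having such a p. Of all 15866 probe sets, 998 had such a p for LY294002 and 1542 for deprivation. Among the 25 genes over 64 on every array, the differences from deprivation ran from -0.99 to 0.97. The lowest was Ctss, cathepsin S, a cysteine protease known from antigen presentation, with changes of 0.38 in serum and -0.61 in deprivation and a difference of -0.99 ± 0.55 (limma, adjusted p = 0.591). Its signals were 117 and 133 with the control virus against 165 and 169 with E2F1 in serum, and 198 against 139 and 112 in deprivation. The highest was Atp6v0e1, a small V0 subunit. Its change was -0.60 in serum and 0.37 in deprivation, a difference of 0.97 ± 0.40 (limma, adjusted p = 0.492). Its signals were 4346 and 3907 with the control virus against 2797 and 2633 with E2F1 in serum, 4225 and 4161 against 2172 and 3464 with LY294002, and 2806 against 3113 and 4210 in deprivation. E2F1 arrays were thus below the control virus arrays in both media with serum and above the single control virus array in deprivation. Atp6v1d, a V1 subunit of the central stalk, had changes of -0.09 in serum and 0.60 in deprivation, where its signals were 4338 with the control virus and 6056 and 7135 with E2F1. That difference of 0.69 ± 0.32 did not pass either (limma, adjusted p = 0.534).

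LY294002 gave 0 calls among the 32 genes, and 0% of all probe sets were called in the average over both viruses, in control virus cells and in E2F1 cells. The number of genes with an unadjusted p under 0.05 (limma) was 4, 1 and 3, where 1917, 1050 and 1769 of all 15866 probe sets had such a p. Lamp1 had an average change of 0.35 (95% interval from 0.03 to 0.66), Ctsh of -0.49 (from -0.94 to -0.03), Ctsl of 0.56 (from -0.10 to 1.22) and Ctsf of 0.59 (from -0.04 to 1.22). The intervals of Lamp1 and Ctsh leave out 0 narrowly before adjustment, and those of Ctsl and Ctsf hold both 0 and changes of over 1 on the log2 scale. Of the 25 genes over 64 on every array, 17 lay above 0, up to Ctsf, and 8 below, down to Ctsh. The median change of the 32 genes was 0.11 against -0.02 for all probe sets.

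The second LY294002 array of each virus stood apart in several of these genes. Both were the highest of the 11 arrays for Atp6v0b (2268 and 1992), Atp6v0c (7532 and 7230) and Ctsl. Ctsf was higher on the second than on the first array by 0.96 with the control virus and 0.90 with E2F1, on the log2 scale. Of the 25 genes over 64 on every array, 8 differed by over 0.5 between the control virus arrays with LY294002 and 6 between those with E2F1, against 5 and 2 for the pairs in serum and 0 for the deprived E2F1 pair. Over all probe sets the median size of the difference was 0.309 (control virus) and 0.325 (E2F1) with LY294002, against 0.199 and 0.208 in serum. Over the genes described here, dim ones included, it was 0.381 and 0.265 with LY294002, against 0.243 and 0.168 in serum. The wider spread with LY294002 was thus not confined to these genes. A difference in signal between 3' and 5' ends of control transcripts, a common measure of RNA quality, was 0.90 on the second E2F1 array with LY294002, 0.51 to 0.76 on the deprived arrays and 0.12 to 0.33 on the rest. Its part in the LY294002 and deprivation results was not tested beyond a fit with it as a covariate.

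**Figure D3:**
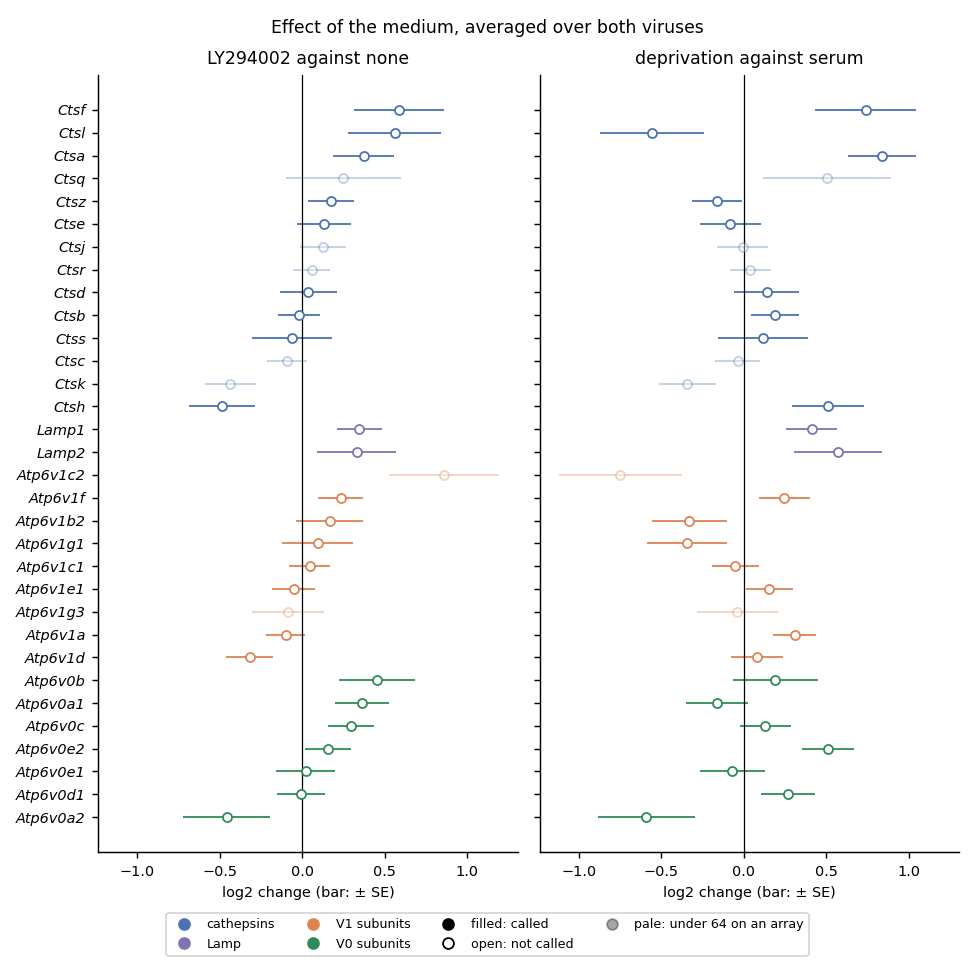
Log2 change of the 32 genes with LY294002 and with deprivation, each against serum (circle, with a bar of ± 1 standard error), averaged over both viruses. No circle is filled, since none was called, and the widest average of a gene over 64 on every array is Ctsa at 0.84 in deprivation.

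Keeping cells deprived, against giving serum, called 0 of the 32 genes in the average over both viruses (2.61% of probe sets were called), with 6 at an unadjusted p under 0.05 (limma). In control virus cells 0 were called (0.24% of all) with 3 at such a p, and in E2F1 cells 0 (0.233% of all) with 4. Of all 15866 probe sets, 3339 had such a p in the average, 2217 in control virus cells and 3106 in E2F1 cells. Ctsa had the largest average among genes over 64 on every array, 1.79-fold higher (0.84 ± 0.21, limma, adjusted p = 0.0751). Its signals, given above, were 5161 against 3435 and 2211 with the control virus, and 2580 and 3117 against 1774 and 1535 with E2F1. Ctsf (0.74), Lamp2 (0.57), Atp6v0e2 (0.51), Ctsh (0.51), Lamp1 (0.41) and Atp6v1a (0.31) also had positive estimates, and Atp6v0a2 (-0.59), Ctsl (-0.55), Atp6v1g1 (-0.34) and Atp6v1b2 (-0.33) had negative ones. A second Atp6v1b2 probe set, at signals from 262 to 907, changed by -1.05 ± 0.23, further from 0 than Ctsa, and was not called. Of the 25 genes over 64 on every array, 16 lay above 0 and 9 below, with none past the threshold. Every deprived array was above every serum array for 3 genes, Atp6v0e2, Atp6v1f and Lamp2 (7.12% of all probe sets), and below for 1, Ctsl (10.1% of all). The deprived control virus value rests on 1 array, which the fit takes to vary like the others, and the 3' to 5' difference moves with deprivation as given above.

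Other genes of the lysosome and its supply were counted in lists for E2F1 in the average of the 3 media, where 7.25% of all probe sets were called lower and 9.23% higher. Among 37 other hydrolases and activators, 14 fell and 1 rose, with a median change of -0.43. Asah1, the acid ceramidase, fell by 1.05 ± 0.17, Scpep1, a serine carboxypeptidase, fell by 1.05 ± 0.17, and Lgmn, the legumain that processes several cathepsins, fell by 0.82 ± 0.13 (limma, adjusted p = 0.00654, 0.00577 and 0.0052). Ggh, which trims the glutamate tail of folates, rose 8.54-fold, from 548 to 1076 over the control virus arrays to 4057 to 10678 over the E2F1 arrays (limma, adjusted p = 0.000298). The count that fell was 8 or 9 without either deprived E2F1 array, the second E2F1 serum array or the first control virus serum array, and 5 in the average over the 2 media with serum.

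Of 34 genes that sort proteins to lysosomes, 9 fell and 0 rose (median -0.31), among them Rab9a (-0.66), a GTPase of return transport from endosomes, and the coat adaptors Gga1 (-0.58) and Gga2 (-0.53). The count was 3 to 5 without any 1 of 5 arrays, the deprived E2F1 and control virus serum arrays and the first E2F1 serum array, and 5 in the average over the 2 media with serum. Of 24 genes of nutrient sensing at the lysosome, 4 fell and 1 rose (median -0.17). Rragc (-0.80) and Rraga (-0.56), GTPases that bring mTORC1 to the lysosome, Flcn (-0.61), which acts on them, and Lamtor2 fell, and Sesn1 (0.52), a p53 target, rose. The count that fell was 2 without either deprived E2F1 array, the first control virus serum array or the second E2F1 serum array, and 1 in the average over the 2 media with serum. Tfeb (0.33), Tfe3 (-0.27) and Mitf (0.18) did not pass.

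Of 9 pump accessory genes 1 fell, Atp6ap1 (-0.57), and the median was -0.20. That call was lost on leaving out any serum or deprived E2F1 array, either control virus serum array or the second LY294002 array of control virus. Of 21 membrane and lipid transport genes 2 fell, Slc17a5 (-1.25), the sialic acid exporter, and Tpcn1 (-0.72), a calcium channel (median -0.20). Of 26 autophagy genes 3 fell, Bnip3 (-0.87), Sqstm1 (-0.54) and Atg10 (-0.52), and 0 rose (median -0.29), a count that ran from 1 to 6 on leaving out single arrays, with 1 without the first deprived E2F1 array, the first control virus serum array or the second E2F1 serum array, 5 without the first LY294002 array of control virus and 6 without the second of E2F1. Of 6 cathepsin inhibitors 1 fell, Cstb (-0.89), the cytosolic inhibitor of cysteine cathepsins, where 2 fell without the second LY294002 array of E2F1 and 3 without the first.

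**Figure D4:**
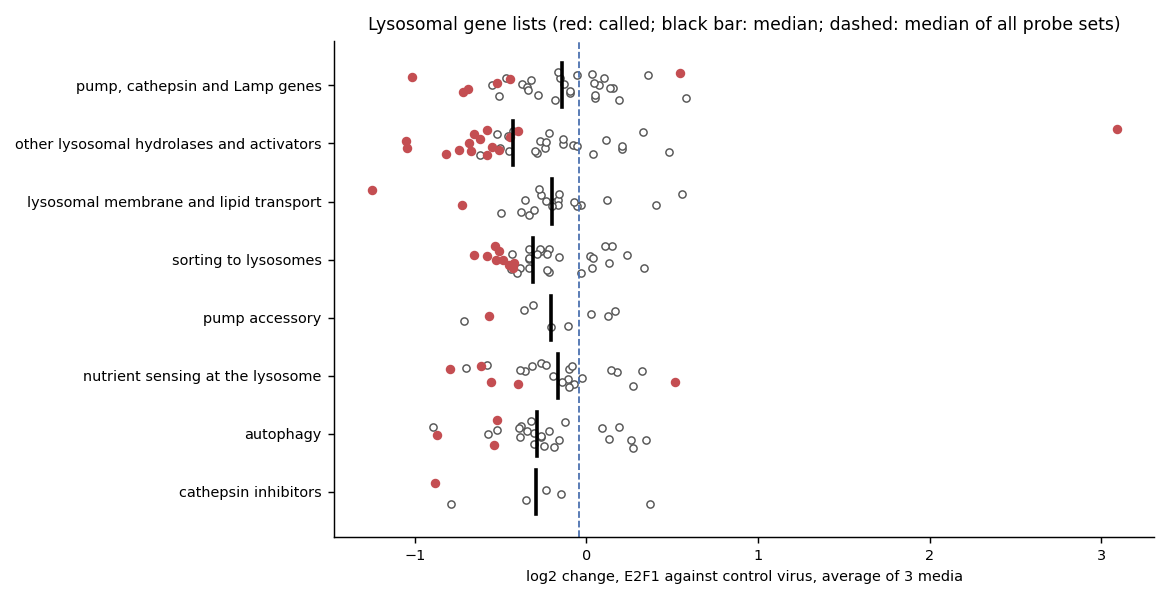
Log2 change of E2F1 against control virus, averaged over 3 media, for every gene of the lysosomal lists (1 point per gene, with the list's median as a line). The list of other hydrolases has the lowest median at -0.43, against -0.04 for all probe sets, and its 1 called higher gene is Ggh.

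Markers of cell types were followed across the 11 arrays. Of 13 fibroblast genes, Col1a1, Col1a2, Vim, Fn1 and S100a4 had lowest signals of 5084, 15341, 12197, 11731 and 10395, while Thy1 (36.0 to 124), Pdgfra (13.7 to 202), Dcn (9.57 to 183) and Lum (3.94 to 147) lay low. The summed signal of the 13, set mostly by the bright ones, was lower with E2F1 than with the control virus in every medium: 105940 to 112890 against 113680 to 117070 in serum, 88587 to 92702 against 101330 to 121000 with LY294002, and 94330 to 107290 against 132900 in deprivation. In the average of the 3 media 2 of the 13 fell, Pdgfrb (-1.90) and Sparc (-0.75), and 0 rose. This moves with the lower cathepsins, and its part in them was not tested.

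Of 13 macrophage and osteoclast genes, 3 stayed under 64 on all arrays, among them Ptprc (at most 51.9, and called lower with E2F1 by -0.68) and Itgam (at most 20.0). Others lay above 64 on every array, among them Cd14 (126 to 326), Aif1 (161 to 327), Fcer1g (139 to 223) and Csf1r (89.3 to 168). The summed signal of the 13 was 1366 to 1599 with E2F1 against 1240 to 1274 with the control virus in serum, 1102 to 1484 against 1154 to 1524 with LY294002, and 1203 to 1467 against 1553 in deprivation. Of 4 endothelial genes 2 were called higher with E2F1, Kdr (0.63) and Tie1 (0.47), at signals of at most 54.0. The summed signal of all 4 endothelial genes was 137 to 160 with E2F1 against 60.6 to 81.0 with the control virus in serum, 160 to 191 against 81.3 to 125 with LY294002, and 130 to 158 against 135 in deprivation. Of 6 epithelial and 5 neuronal genes 0 were called (limma, 0 and 0 at an unadjusted p under 0.05). The brightest were Krt8 (124 to 574) among the epithelial genes and Syp (184 to 423) among the neuronal ones. The part of these levels in the cathepsin and pump changes was not tested.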

How the data were processed

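The deposited values are linear signal intensities, 1 for every probe set of each RAE230A array. Biotinylated cRNA was prepared from 6 µg of RNA, per the labels' protocols. The submitters' processing notes list MAS5 and RMA, with neither role nor version. Each array has a mean of 500 once 2% of probe sets are trimmed from both ends. No detection calls were used, and precision is limited by how few arrays a group has.

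Of 15923 probe sets, 57 controls were left out and 15866 tested; 12783 have 1 symbol, 312 several and 2771 none. All 32 gene identifiers have the same symbol in a RefSeq gene table (assembly GRCr8). The model had 6 group means and took log2(signal + 16) of all 11 arrays, without further scaling, with limma 3.58.1 in R 4.3.3 (5 residual degrees of freedom, prior 2.88). The 12 comparisons were each adjusted by Benjamini-Hochberg with a threshold of 0.05, and errors are standard errors of this fit. Folds are on the log2(signal + 16) scale and given where every compared array reached 64. The steps were tested on simulated data. For E2F1 they recovered 76% of 2-fold changes in the average of the 3 media. In single media they recovered 23% (serum), 25% (LY294002) and 3% (deprivation).

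The genes and lists were chosen with earlier results of these data known. Every gene of the rule is named. Values on every array are given for called genes (at most 6 a direction) and for Ctsb, Ctsd, Ctsl, Lamp1, Lamp2 and Atp6v1a, and up to 3 called genes a direction are named from each other list. Exceptions picked after their values were seen are Neu1, Glb1, Lamtor2, Tfeb, Tfe3 and Mitf. Array values of Ctsf, Ctss, Atp6v0a1, Atp6v0b, Atp6v0c, Atp6v0e1 and Atp6v1d, none of them called, are also given outside this choice. List genes were to be named only in comparisons where some of the 32 genes were called. Those named for deprivation against serum, where 0 of the 32 were called, therefore lie outside it too. The alternatives were other scaling, offsets, filters, model settings, a replicate block, probe set means and leaving out arrays. The average over the 2 media with serum, and the alternatives for the other lists and for genes not called, were added after seeing the data.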

Additional observations from a re-analysis of the deposited data

How the results depend on the processing

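Counts of the 32 genes called are given here under the alternatives. For E2F1 averaged over the 3 media (6 genes), leaving out single arrays gave 2 to 6, the average over the 2 media with serum gave 1, and the other alternatives stayed within 1.5 times. The changes of the 6 called genes kept their direction under all alternatives run. Among genes not called, the E2F1 average turned sign for Atp6v0b (-0.0187 with the replicate block, -0.0225 with the 3' to 5' covariate, -0.12 to 0.19 without single arrays), Atp6v0c (-0.0206 to 0.12 without single arrays), Atp6v1d (-0.0673 over the 2 media with serum), Ctsj (-0.0075 without both second LY294002 arrays, -0.000224 to 0.15 without single arrays), Ctsk (-0.0241 to 0.12 without single arrays), Ctsq (-0.0764 with the mean of probe sets) and Ctss (0.0527 over the 2 media with serum, -0.34 to 0.0037 without single arrays). That average cannot be formed without the single deprived control virus array. With LY294002, where 0 were called, E2F1 called 1 under quantile normalization, median centring, an offset of 64, without the dimmest 30% of probe sets and with trend and robust settings (Ctsh in each), and 1 under the mean of probe sets and the 3' to 5' covariate (Lamp2 in each); leaving out single arrays gave 0 to 1. In deprivation, where 0 were called, E2F1 called 1 (Atp6v1a) with an offset of 64, without the dimmest 30%, with trend and robust settings, and with array weights. Deprivation against serum, averaged over both viruses, called 1 (Ctsa) without the dimmest 30%, with trend and robust settings and with array weights, and 2 (Ctsf and Ctsl) in the fit of the compared groups alone and without both second LY294002 arrays. In E2F1 cells it called 2 (Atp6v1a and Ctsk) with array weights and 1 (Ctsl) without both second LY294002 arrays. The causes were not tested. Array numbers did not pair the samples in general, since deviations from group means correlated over 0.1 in only 1 of 10 group pairs. That pair was control virus with E2F1 under LY294002 (0.301), where the second arrays stood apart as given above. The fit as described took no account of this. With replicate number as a block, 6 genes were called for E2F1 in the average and 0 in the other 11 comparisons.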

Other observations

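Deprivation against serum, averaged over both viruses, moved several lysosomal genes outside the pump and cathepsin families, in a comparison where 2.61% of all probe sets were called. Of 37 other hydrolases and activators, 3 rose and 0 fell: Man2b1, the acid alpha-mannosidase (2.48-fold), Dpp7, a dipeptidyl peptidase (2.07-fold), and Gla, the alpha-galactosidase (1.99-fold), with adjusted p = 0.0475, 0.0464 and 0.0461 (limma). Of 24 nutrient sensing genes 1 rose, Deptor, an inhibitor of mTOR (2.35-fold), from 298 to 389 over the serum arrays to 634 to 975 over the deprived arrays (limma, adjusted p = 0.0373), and 0 fell. Of 34 sorting genes 1 rose, the clathrin light chain Cltb (2.20-fold), and 2 fell, the adaptor subunits Ap3m1 (3.11-fold) and Ap1g1 (1.95-fold), with adjusted p = 0.0189, 0.0318 and 0.0404 (limma). Of 9 pump accessory genes 1 rose, Dmxl2 (1.62-fold, limma, adjusted p = 0.0427), and of 21 membrane genes 1 fell, Tpcn1 (1.74-fold, limma, adjusted p = 0.0496). These calls hang on single arrays: in each of the 5 lists 0 genes were called without either deprived E2F1 array or any 1 of the 4 serum arrays, and 0 with the 3' to 5' covariate, in alternatives added after seeing the data. Without either LY294002 array of control virus, the hydrolases called were 1 and the membrane genes 0, and without either of E2F1 the hydrolases were 5. These values rest on 1 deprived control virus array, and the 3' to 5' difference moves with deprivation; the comparison cannot be formed without that array.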
